A study of Mus musculus with 12 samples.

Results

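Open chromatin was compared between the untreated cells of 2 mouse tumour lines, B16F10 melanoma and 4T1 mammary carcinoma, across genes and regulatory regions. The members were the control libraries of each line, 3 of B16F10 and 3 of 4T1, 6 of the 12 libraries of the series; the libraries treated with the DNA methyltransferase inhibitor DAC were not used. B16F10 is a transplantable melanoma line, whose cells of origin make pigment, and 4T1 is a transplantable carcinoma line of mammary epithelium. Neither group had received DAC, and for both the labels describe cells from which dead cells had been taken out with magnetic beads. ATAC-seq uses a transposase that inserts adapters into accessible DNA, so that read pile-ups (peaks) mark open promoters and enhancers. The labels do not say that replicates were separate cultures, so p-values cover no more than how far these libraries lie apart, and that spread may be technical. Each line is 1 line, and mouse strain, sex and the sequencing instrument of each library were not given in the sources used here, so line, strain and instrument cannot be told apart.

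The peak lists differed in length. The B16F10 lists held 53807, 50126 and 53834 peaks and the 4T1 lists 90608, 95101 and 92930. The same number of peaks, 49602, was therefore taken from each library on chromosomes 1 to 19 and X, those of highest −log10 p. This kept 93.1%, 100% and 93.1% of the B16F10 peaks on those chromosomes and 55.3%, 52.7% and 53.9% of the 4T1 peaks. The weakest peak kept had a −log10 p of 3.24 to 5.55 in B16F10 and of 34.9 to 38.4 in 4T1. A region without a 4T1 peak in these lists may thus hold a weaker peak in the complete 4T1 lists, and such cases were counted. The files hold no read counts, so the depth behind single peaks is unknown.

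Melanocytes derive from the neural crest. Their identity is held by transcription factors that include MITF, which binds a short E-box, SOX10, a high-mobility-group factor, and PAX3, and these act on the genes of melanin synthesis (Tyr, Tyrp1, Dct) and of the melanosome. Mammary epithelium is built on adhesion and junction proteins such as E-cadherin (Cdh1) and EpCAM and on keratins, under factors that include GRHL2 and OVOL1, with ESRP1 and ESRP2 setting epithelial splicing. AP-1, a dimer of FOS and JUN proteins, and TEAD factors with their partners YAP1 and TAZ (Wwtr1) bind many enhancers of epithelial cells.

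Peaks of the 6 lists were merged where they overlapped. A region is called in B16F10 alone when 3 of 3 B16F10 libraries and 0 of 3 4T1 libraries had a peak in it, and in 4T1 alone for the reverse. The strength of a peak is its percentile of −log10 p among the 49602 peaks of its library, and a region is ranked by the lowest of the 3 percentiles. The following windows of 201 bases lie around the summits of regions called in 1 line alone at 6 lineage genes. They were chosen from the highest-ranked such regions, 1 per gene, among those with a match to a lineage motif. Not every window chosen in this way is printed. Those printed are shown because the later counts turn on these matches. They are read 5′ to 3′ on the plus strand of GRCm38 (mm10), and capitals mark matches, on either strand, to the MITF motif (TCATGTG or TCACGTG), the SOX motif (ACAAAG) or the AP-1 motif (TGANTCA). The first 3 were open in B16F10 alone: the promoter of Dct at chr14:118052378-118052578, an intergenic region 14.8 kb upstream of Tyr at chr7:87508244-87508444 and an intron of Trp63 at chr16:25737801-25738001. The other 3 were open in 4T1 alone: an intergenic region 26.1 kb upstream of Epcam at chr17:87609829-87610029, an intergenic region 40.0 kb upstream of Grhl2 at chr15:37192907-37193107 and an intron of Mitf at chr6:97855778-97855978.
Dct promoter, B16F10 alone: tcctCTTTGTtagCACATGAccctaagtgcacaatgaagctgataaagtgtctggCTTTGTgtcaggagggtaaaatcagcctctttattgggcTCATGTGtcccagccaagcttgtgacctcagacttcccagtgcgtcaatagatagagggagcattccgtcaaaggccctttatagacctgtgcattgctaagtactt
Tyr upstream, B16F10 alone: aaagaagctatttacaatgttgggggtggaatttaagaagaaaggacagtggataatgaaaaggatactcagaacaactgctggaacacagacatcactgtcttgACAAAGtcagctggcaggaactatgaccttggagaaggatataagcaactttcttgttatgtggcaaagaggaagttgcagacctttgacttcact
Trp63 intron, B16F10 alone: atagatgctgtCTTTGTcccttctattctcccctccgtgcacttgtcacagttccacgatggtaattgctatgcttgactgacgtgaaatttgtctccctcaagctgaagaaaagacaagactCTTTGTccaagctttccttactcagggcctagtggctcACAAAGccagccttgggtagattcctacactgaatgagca
Epcam upstream, 4T1 alone: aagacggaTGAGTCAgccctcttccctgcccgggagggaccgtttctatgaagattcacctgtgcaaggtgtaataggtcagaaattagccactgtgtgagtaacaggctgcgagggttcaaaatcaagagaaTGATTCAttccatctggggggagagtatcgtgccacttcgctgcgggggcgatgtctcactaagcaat
Grhl2 upstream, 4T1 alone: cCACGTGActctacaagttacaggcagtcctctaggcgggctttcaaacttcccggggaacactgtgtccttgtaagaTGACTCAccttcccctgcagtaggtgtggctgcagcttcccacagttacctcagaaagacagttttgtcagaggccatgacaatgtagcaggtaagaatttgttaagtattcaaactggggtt
Mitf intron, 4T1 alone: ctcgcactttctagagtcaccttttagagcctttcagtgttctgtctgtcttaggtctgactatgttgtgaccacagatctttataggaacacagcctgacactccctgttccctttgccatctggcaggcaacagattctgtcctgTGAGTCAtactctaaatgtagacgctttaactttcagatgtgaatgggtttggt
The Dct promoter window held 2 MITF and 2 SOX matches and no AP-1 match. The Tyr window held 1 SOX match and the Trp63 window 3. Of the 4T1 windows, that of Epcam held 2 AP-1 matches, that of Grhl2 1 AP-1 match and 1 MITF match, and that of Mitf 1 AP-1 match and no MITF or SOX match. A match describes the letters of the window and is not evidence of a bound factor. Regions of higher rank without a MITF, SOX or AP-1 match were passed over, so the windows do not show how common the matches are: they include B16F10-alone regions 28.0 kb (lowest percentile 92.5) and 1.74 kb (91.0) upstream of Sox10, in an intron of Mlana (92.2) and in an intron of Cdh1 (83.7), and the 4T1-alone promoter of Cdh1 (85.0). Another window chosen for its matches, in an intron of Cdh1 and open in 4T1 alone, is not printed. Its lowest percentile, 77.4, was above the 73.7 of the printed Mitf window. The Cdh1 window held 1 MITF and 1 SOX match and no AP-1 match, so the motif sets were not exclusive to a line. A B16F10-alone window 69.6 kb upstream of Epcam (75.1), with 1 SOX match, is likewise not printed.

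The lines shared a minority of their open regions. The Jaccard index, the covered bases shared by a pair of libraries divided by those covered in either, was 0.724 ± 0.006 between B16F10 libraries (SD, n = 3 pairs), 0.848 ± 0.003 between 4T1 libraries (SD, n = 3 pairs) and 0.286 ± 0.001 between the lines (SD, n = 9 pairs). Pairs share libraries, and no test was made of them. The highest index between the lines, 0.287, lay below the lowest within a line, 0.719. Of 87504 merged regions, 19575 (22.4%) had a peak in all 6 libraries, 18741 (21.4%) were called in B16F10 alone and 23729 (27.1%) in 4T1 alone. The other 25459 regions were called in some libraries of a line. In the complete lists, 12868 of the B16F10-alone regions (68.7%) still had no peak in any 4T1 library, and 23390 of the 4T1-alone regions (98.6%) had none in any B16F10 library. The B16F10-alone class therefore mixes regions with no 4T1 peak and 5873 regions with a weaker one.

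Regions of 1 line lay away from promoters. Promoters are taken as 1000 bp on either side of the outermost start of each protein-coding gene. The strongest summit lay in a promoter in 42.6% of the regions open in all 6 libraries, in 3.50% of those open in B16F10 alone and in 4.67% of those open in 4T1 alone. Introns held 25.8%, 49.6% and 42.9% of the 3 classes and intergenic DNA 26.1%, 42.4% and 48.0%. The median distance to the nearest gene start was 4.58 kb for shared regions, 33.9 kb for B16F10-alone regions and 35.8 kb for 4T1-alone regions. Island-like sequence (a ratio of observed to expected CpG above 0.6 with GC above 50.0%) made up 42.0%, 2.04% and 3.66%. Regions are not replicates, and these shares are given without a test.

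**Figure D1:**
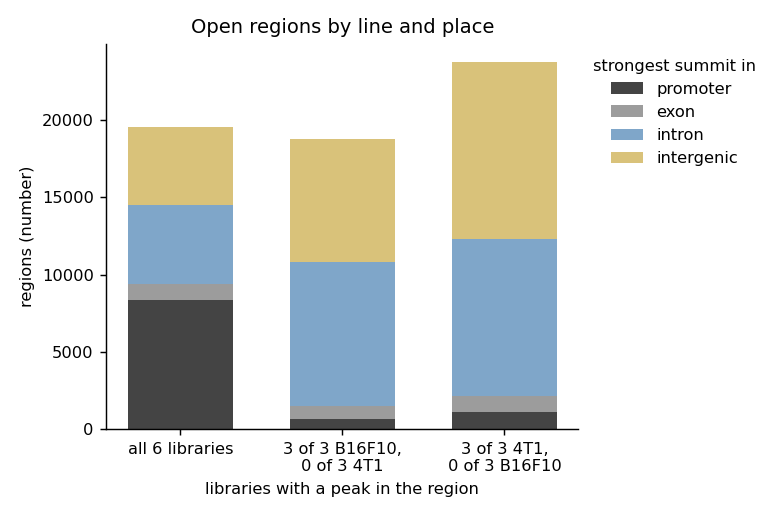
Number of merged regions (vertical axis) called in all 6 libraries, in the 3 B16F10 libraries alone and in the 3 4T1 libraries alone, with the bars divided by the place of the strongest summit. The 8348 promoter regions of the shared class exceed the 655 of B16F10 alone and the 1108 of 4T1 alone, and intron and intergenic regions fill most of both line-alone bars.

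Over whole lists the placement of peaks differed by a few percentage points. The promoter share of peaks was 19.03%, 19.14% and 19.01% in the B16F10 libraries and 19.66%, 19.62% and 19.56% in the 4T1 libraries, and its direction turned when peaks were taken by fold enrichment, from the complete lists or at 25000 per library. Introns held 39.8% ± 0.073 of B16F10 peaks and 36.5% ± 0.091 of 4T1 peaks (SD, n = 3 each). Peaks were narrower in B16F10, with median widths of 551, 527 and 561 bp against 713, 723 and 716 bp in 4T1, but with every deposited peak the difference turned (B16F10 minus 4T1 46.3 bp). Of 12 such measures, 5 (41.7%) were higher in every B16F10 library and 6 (50.0%) in every 4T1 library, each at p = 0.10 by exact permutation (two-sided), below which 3 against 3 libraries cannot go.

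AP-1 matches set the 4T1 libraries furthest apart from the B16F10 libraries. They lay within 100 bp of the summit of 7.70%, 7.63% and 7.93% of B16F10 peaks and of 40.4%, 40.4% and 40.2% of 4T1 peaks. All 3 4T1 libraries were above all B16F10 libraries, and B16F10 minus 4T1 was -32.6 percentage points in the means. The SOX match went the other way, with 21.5%, 21.3% and 21.1% in B16F10 and 13.8%, 13.7% and 13.7% in 4T1. The CTCF match, the site of the insulator protein, was at 6.398% ± 0.211 in B16F10 and 4.29% ± 0.030 in 4T1 (SD, n = 3 each). More frequent in 4T1 were 4 further motifs: the E-box CACCTG, bound by ZEB and SNAI repressors among others, at 15.5% against 9.51%, TEAD (GGAATG) at 16.1% against 13.4%, RUNX (TGTGGTT) at 7.55% against 4.93% and GRHL (AACCNGTT) at 1.70% against 1.09%. The MITF match differed by less, with 6.29%, 6.23% and 6.26% of B16F10 peaks and 5.91%, 5.95% and 5.86% of 4T1 peaks. Of the 22 motifs sought, 8 (36.4%) were higher in every B16F10 library and 11 (50.0%) in every 4T1 library, each with an exact two-sided permutation p of 0.10 and an adjusted p of 0.116. So the absence of overlap was common, and AP-1 differed from the rest by the size of its difference. The ETS, NRF1 and STAT matches had an exact permutation p of 0.50. Where whole peaks were searched in place of summits, the AP-1 direction held, but SOX and MITF were more frequent in 4T1, whose peaks were wider in the equal lists.

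**Figure D2:**
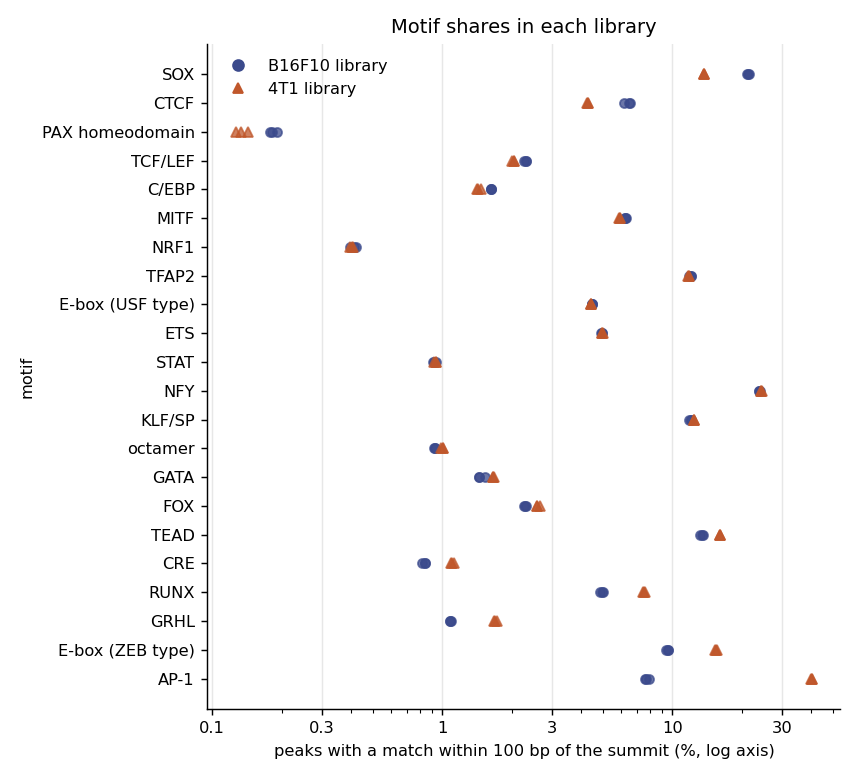
Percent of the 49602 peaks of each library with a motif match within 100 bp of the summit (horizontal log axis), for 22 motifs ordered by the ratio of the lines, with 1 point per library. AP-1 stands furthest to the side of 4T1 (40.2% to 40.4% against 7.63% to 7.93%) and SOX furthest to the side of B16F10; the USF-type and ZEB-type E-boxes are the 2 E-box motifs of the text.

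The classes of regions showed the same order more sharply. AP-1 matches were in 62.0% of 4T1-alone regions, 12.1% of regions open in all 6 libraries and 6.08% of B16F10-alone regions, against 26.2% of all regions. The SOX match was in 30.8% of B16F10-alone, 15.5% of 4T1-alone and 11.7% of shared regions, against 19.4% of all regions. MITF matches were in 7.13% of B16F10-alone and 6.23% of 4T1-alone regions, against 6.26% of all regions. RUNX matches reached 9.89% in 4T1-alone regions and 5.05% in B16F10-alone regions. CTCF matches were fewest in 4T1-alone regions, at 0.759%, with 4.23% in B16F10-alone and 7.84% in shared regions.

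The B16F10-alone class was not uniform. Its 12868 regions without any peak in the complete 4T1 lists had SOX matches in 35.2% and CTCF matches in 1.40%. Its 5873 regions with a weaker 4T1 peak had SOX matches in 21.4% and CTCF matches in 10.4%. The CACCTG E-box was likewise at 4.07% in the former and 11.1% in the latter, while AP-1 was at 5.70% and 6.91%. Among B16F10-alone regions outside promoters, the SOX share was 40.9% in the strongest of 5 equal bins by rank and 24.96% in the weakest. For 4T1-alone regions outside promoters, the AP-1 share was 71.2% in the strongest bin and 56.96% in the weakest. Both motifs were thus most frequent in the regions of highest rank. At promoters the contrast was smaller: AP-1 matches were in 20.1% of the 4T1-alone and 3.66% of the B16F10-alone promoter regions.

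The 5 highest-ranked regions of each line lay mostly outside promoters, and 6 of the 10 were on chromosome 15. In B16F10 they were an intergenic region 192 kb from Gsdmc (lowest percentile 99.9), an intron 24.6 kb from Oacyl, an intergenic region 20.9 kb from Dusp6, an inhibitor of ERK signalling, an intergenic region 116 kb from Mtss1 and an intron 99.3 kb from Trib1. In 4T1 they were an intron 64.4 kb from Ndufb9, the promoter of Pxmp4, an intergenic region 24.1 kb from Mtss1, the promoter of Ifi203 and an exon 5.95 kb from Tatdn1. None of these 10 had a peak in the complete lists of the other line. DNA copy number at these regions was not tested. The Gsdmc region is at chr15:63616284-63617562 and the Ndufb9 region at chr15:58997653-58998751.

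Promoters differed less often than distal regions. Of 21728 protein-coding genes, 9788 (45.0%) had a promoter peak in all 6 libraries, 682 (3.14%) in B16F10 alone and 1211 (5.57%) in 4T1 alone, and 9315 had none. The order of the line-alone counts turned at 25000 peaks per library (1176 in B16F10, 751 in 4T1) and by fold enrichment (1217 and 1089). Of the 682, 409 had no peak in the complete 4T1 lists, and of the 1211, 1179 had none in the complete B16F10 lists. The genes of highest rank in B16F10 alone were Iffo1, an intermediate filament family gene, Ccdc166, Myh14, a non-muscle myosin heavy chain, Asap2, Car6, a secreted carbonic anhydrase, Ehhadh, a peroxisomal enzyme of fatty acid oxidation, Pfn4 with Fam228b, which share a region, Abat, the GABA transaminase, and Piwil2. The Iffo1 promoter was at percentiles 99.6, 99.5 and 99.6. Iffo1, Myh14 and Abat had a weaker peak in at least 1 complete 4T1 list, and Myh14 and Asap2 a 4T1 peak at another transcript start. In 4T1 alone they were Pxmp4, a peroxisomal membrane protein, at 99.9 in all 3 libraries, Ifi203 with Mndal, which share a region, Ifi204, Pate1, Zfp599, Krt16, a keratin, Myh10, another non-muscle myosin, Pcbp3 and Podnl1. Ifi203, Ifi204 and Mndal are neighbours of the interferon-inducible p200 family.

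Genes of pigment cells were open at the promoter in B16F10 and genes of epithelium in 4T1. Among 20 melanin and melanosome genes, 10 promoters were called in B16F10 alone, 0 in 4T1 alone, 6 in all 6 libraries and 3 in none. Among 16 melanocyte regulators the counts were 3, 0, 5 and 7, and among 12 neural crest and Schwann cell genes 6, 1, 3 and 2. Among 28 epithelial junction and surface genes, 0 promoters were called in B16F10 alone and 17 in 4T1 alone, with 5 in all 6 and 4 in none. Among 16 epithelial transcription and splicing genes, 0 were called in B16F10 alone and 8 in 4T1 alone, and among 9 keratins 0 and 5. Beside these stand 3.14% and 5.57% of all genes. The remaining list genes were called in some libraries of a line. The lists were chosen with earlier results of these data known.

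Of the melanin enzymes, Dct, the dopachrome tautomerase, had a promoter peak at percentiles 96.8, 97.2 and 97.6 in B16F10. Tyrp1, which acts after it in eumelanin synthesis, was at 65.4, 62.6 and 62.6. Tyr, the tyrosinase that starts melanin synthesis, had no promoter peak in any library, nor in the complete lists; the nearest B16F10-alone region was the upstream window printed above, at a lowest percentile of 78.1. Pmel, the protein of melanosome fibrils, was open in all 6 libraries, at 82.2 to 83.7 in B16F10 and 69.5 to 78.4 in 4T1. Mlana, the melanosome antigen MART-1, was at 84.6, 80.9 and 79.4 in B16F10 and had no 4T1 peak. Transporters and traffic genes followed: Slc45a2 at 69.5 to 72.6, Slc24a5 at 66.8 to 75.6, Gpr143, the ocular albinism receptor, at 77.3 to 80.4, Rab38 at 91.2 to 94.8 and Mlph, which links melanosomes to myosin Va, at 75.3 to 76.1. Bace2 (59.8 to 61.4) and Tspan10 (39.5 to 53.2) completed the 10, and of these Tspan10 had a weaker peak in the complete 4T1 lists and Mlph a 4T1 peak at another transcript start. The melanosome motor Myo5a and the GTPases Rab27a and Rab32 were open in both lines.

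Among the regulators, Pax3 was at 97.4, 97.1 and 95.8 in B16F10, Sox10 at 60.9, 65.5 and 63.1 and Zeb2 at 37.8, 37.1 and 41.3, and no 4T1 library, complete lists included, had a peak at these promoters. At another transcript start of Zeb2 all 3 4T1 libraries had a peak. Mitf itself was open in all 6 libraries, at 93.9, 94.2 and 96.7 in B16F10 and 96.1, 94.9 and 95.6 in 4T1, and the lines overlapped. That value is for the outermost 5′ end of a gene with several promoters. Mc1r, the melanocortin receptor, was open in all 6, at 76.4, 82.3 and 78.1 against 35.2, 20.1 and 33.8. Tbx2, a repressor of senescence in melanoma, was at 93.03, 93.67 and 94.84 against 69.6, 61.9 and 68.3. Kit, the receptor of stem cell factor, Ednrb, Irf4, Foxd3 and Pou3f2 had no promoter peak. Lef1 had none in the equal lists and a weaker one in all 3 complete 4T1 lists. Of the neural crest genes, Ncam1 (86.7 to 89.6), Cdh2, N-cadherin (70.5 to 75.1), Cdh19 (68.4 to 72.9), S100b (57.6 to 63.4), Fabp7 (38.8 to 47.4) and L1cam (33.1 to 46.6) were called in B16F10 alone, L1cam with a weaker peak in 1 complete 4T1 list. Ngfr, the p75 neurotrophin receptor of neural crest cells, went the other way, at 54.4, 57.1 and 58.8 in 4T1 with no B16F10 peak.

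In 4T1, Cdh1 was at 86.6, 90.6 and 85.0 and Epcam at 56.8, 59.3 and 44.9, with no B16F10 peak in the complete lists. Gata3, a luminal factor (89.1 to 94.2), Esrp2 (80.5 to 81.8), Ovol1 (75.01 to 80.99), Grhl2 (68.3 to 72.2), Esrp1 (37.8 to 41.7), Tfap2c (33.8 to 42.8) and Ovol2 (22.4 to 29.6) were among the 8 transcription and splicing genes called in 4T1 alone. At other transcript starts all 3 B16F10 libraries had a peak for Gata3 and Grhl2, and 2 of 3 for Esrp1. The merged region of the Esrp2 promoter also held a B16F10 peak beyond 1000 bp of the gene start, at 29.5, 24.5 and 29.6. Grhl1, Elf3, Klf5 and Foxa1 were open in all 6 libraries and Elf5, Ehf, Trp63 and Spdef in none. At another transcript start of Elf5 all 3 libraries of each line had a peak. Elf5 and Ehf each had a weaker promoter peak in 2 complete 4T1 lists. Junction genes of high 4T1 rank included Perp (94.0 to 94.2), Jup, plakoglobin (88.2 to 91.5), the integrin Itgb4 (74.4 to 76.3) and the claudin Cldn4 (68.2 to 73.8). At other starts B16F10 had a peak for Itgb4 in 3 libraries and for Jup in 1. The simple-epithelium keratins Krt8 (63.2 to 68.9), Krt18 (27.5 to 39.8), Krt7 (27.4 to 34.8) and Krt19 (38.1 to 48.6) were open in 4T1 alone, as was the basal keratin Krt14 (56.9 to 61.6). Krt5, the partner of Krt14, and Krt6a had no promoter peak, also in the complete lists. Tjp3, Crb3, Lsr, Cgn and Ap1m2 were open in both lines, Tjp3 at 96.7 to 98.1 in B16F10 and 95.4 to 97.4 in 4T1.

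**Figure D3:**
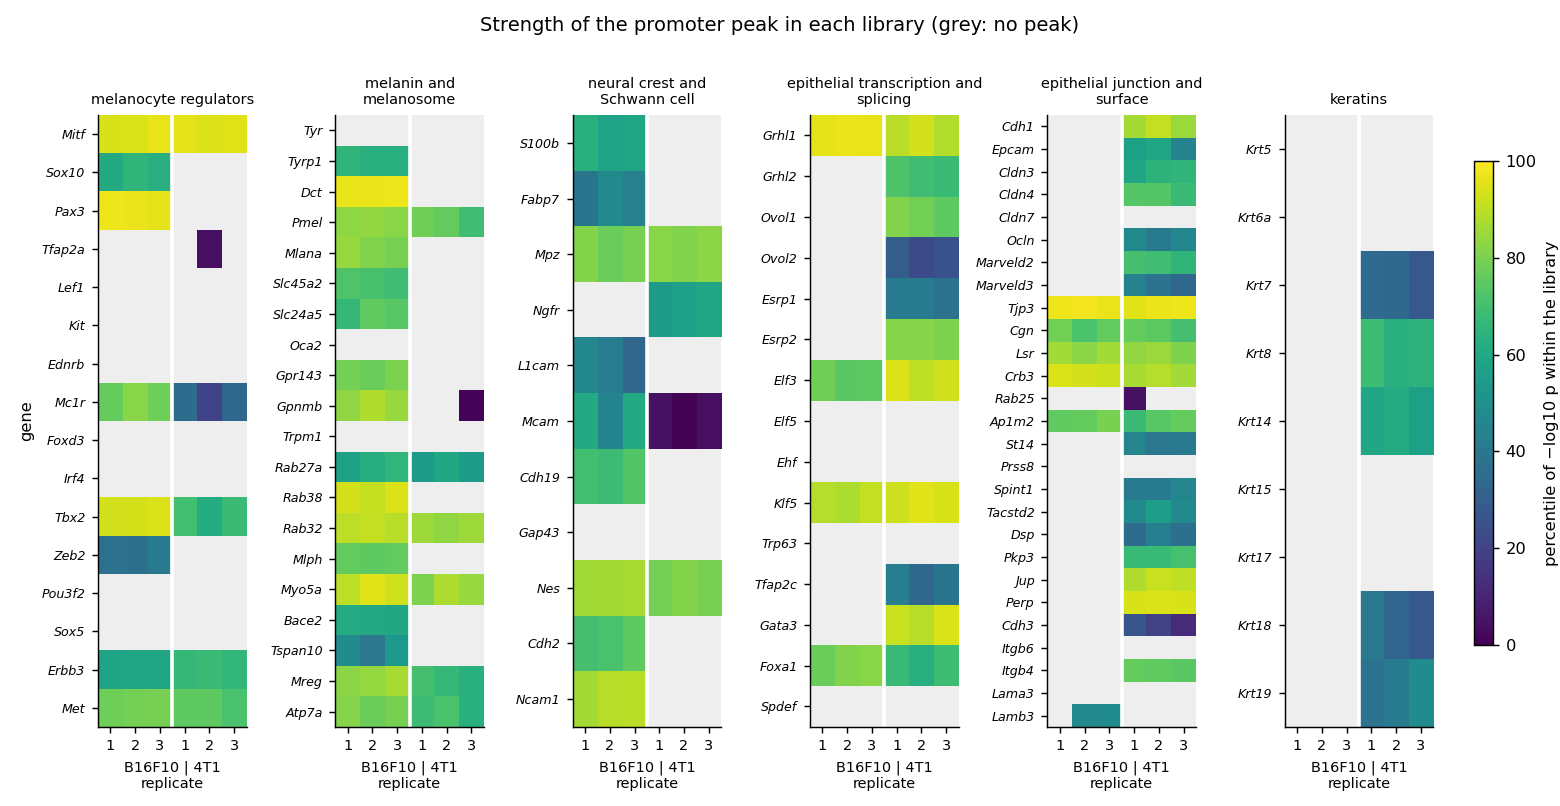
Percentile of the promoter peak within each library (colour scale, grey for no peak) for genes of 6 lineage lists, with replicates 1 to 3 of B16F10 and of 4T1 as columns. Pigment cell and neural crest genes such as Dct and Ncam1 are coloured mainly in the B16F10 columns, junction genes and keratins mainly in the 4T1 columns, and Mitf, Tjp3 and Crb3 in all 6.

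Markers of other cell types and of the tissue were read in the same way. Over all genes 3.14% were called in B16F10 alone, 5.57% in 4T1 alone and 45.0% in all 6, and 9315 of 21728 had none. With so few genes per list, 0 or 1 called in a line alone is close to these shares. Of 10 neuron genes, 0 promoters were called in either line alone and 9 in none; of 10 leukocyte genes, 0 were called in B16F10 alone, 1 (Cd14) in 4T1 alone and 8 in none, with Ptprc, Cd3e and Cd79a at 0 libraries. Of 10 endothelial and fibroblast genes 1 (Pdgfrb) was called in B16F10 alone and 7 in none, and of 8 hepatocyte genes 2 (Ttr and Apob) in B16F10 alone and 6 in none. Pdgfrb had a weaker peak in 1 complete 4T1 list and Apob in all 3. Of 13 mammary luminal and milk genes, 2 (Areg and Egfr) were called in 4T1 alone, 1 (Lalba) in B16F10 alone, 3 in all 6 and 7 in none. The caseins Csn1s1, Csn2 and Csn3, Wap, Pgr and Prlr had no promoter peak in the equal lists, and Lalba, the milk lactalbumin, was at 2.92, 22.1 and 32.8 in B16F10. Csn3 had a weaker peak in all 3 complete 4T1 lists. Of 11 mesenchymal genes, Snai1 (93.5 to 94.7) and Twist1 (45.6 to 47.9) were called in 4T1 alone and Sparc in B16F10 alone (94.0 to 96.2), the last with a weaker peak in the complete 4T1 lists and a peak at another start in all 3 4T1 libraries. Vim was open in all 6, and Snai2 was at 92.8, 90.7 and 94.1 in B16F10 and 28.7, 24.0 and 25.5 in 4T1. Of 12 housekeeping genes, 10 were open in all 6, 0 were called in 4T1 alone and 1 in B16F10 alone, with a weaker peak in all complete 4T1 lists. Gapdh, for scale, was at 94.8, 96.2 and 96.6 in B16F10 and 81.1, 80.5 and 82.6 in 4T1.

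The genes of the AP-1 and TEAD pathway were mostly open in both lines. Of 19, 15 promoters were called in all 6 libraries, 2 in 4T1 alone, 0 in B16F10 alone and 2 in none. Over all genes the shares of the first 3 classes were 45.0%, 5.57% and 3.14%. Atf3, with no promoter peak, had a peak at another transcript start in 3 4T1 libraries and 0 B16F10 libraries. Fosl1, which encodes the AP-1 subunit FRA-1, was at 85.8, 81.5 and 80.7 in 4T1 with no B16F10 peak in the complete lists. Ankrd1, a target of YAP1, was at 96.2, 91.7 and 94.2 in 4T1 alone. Jun was at 90.6, 91.5 and 91.4 in B16F10 and 83.9, 77.8 and 80.0 in 4T1, and Tead4 at 97.8, 98.5 and 98.6 against 73.4, 70.2 and 70.3. So at Jun and Tead4 the B16F10 promoter peaks ranked higher. Ranks leaned that way in general, and so did that of Gapdh above. Of all regions open in the 6 libraries, 60.9% ranked higher in B16F10 and 17.7% in 4T1 in the rank test described below.

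Distal elements were read gene by gene. Each peak was assigned by its summit to the nearest start of a protein-coding gene within 100 kb. The number of peaks per gene and library was tested on the log2(peaks + 1) scale with a limma linear model. Its variance had a floor, and its p-values came from a normal distribution and not from limma's moderated test. Benjamini-Hochberg adjustment was over the 14262 genes with at least 6 peaks in all. More peaks were assigned in B16F10 for 3523 genes (24.7%) and in 4T1 for 3382 (23.7%) at an adjusted p under 0.05. The libraries of the lines did not overlap for 3530 genes (24.8%) and 3413 genes (23.9%). The counts describe how many peaks surround a gene, and their fold understates the change of genes with few peaks.

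The genes with the largest excess in B16F10 were Cdh2, with 11, 12 and 11 peaks against 0 in each 4T1 library, Fam198b (12, 10 and 12 against 0), Xylt1, a xylosyltransferase of proteoglycan synthesis (11, 10 and 10 against 0), Tyrp1 (8, 10 and 9 against 0) and Ncam1 (9, 10 and 8 against 0), then Irx5, a homeobox factor, Prkcq, a protein kinase C, Kcna6, a potassium channel, Fbxl7 and Stard8. For Cdh2 the difference was 3.62 ± 0.15 on the log2 scale (SE, adjusted p 2e-117 by the limma model). Such p-values rest on the larger of a gene's own variance and the mean variance of genes at a similar level, read against a normal distribution. Both variances come from the small spread between libraries of a line. Dct, outside the first 10, had 15 peaks in each B16F10 library and 1 in each 4T1 library, 3.00 ± 0.14 on the log2 scale, and 10 of its regions were called in B16F10 alone. Of 17 melanin and melanosome genes tested, 12 had more peaks in B16F10 and 1 (Rab32) in 4T1, and of 9 neural crest genes 7 and 0, where over all genes 24.7% were higher in B16F10 and 23.7% in 4T1. Of 14 melanocyte regulators tested, 9 had more peaks in B16F10 and 4 (Tfap2a, Lef1, Sox5 and Met) in 4T1; the direction of Tfap2a (0.074) and Sox5 (0.72) turned when peaks within 50 kb were used. Of the genes higher in B16F10, Zeb2 turned at 25000 peaks per library (-1.58), and Ngfr with every deposited peak (-0.20) and at 25000 peaks (-0.031). The medians of the 3 lists were 0.90, 2.00 and 0.94 on the log2 scale, in that order, against 0 to 2 decimals over all genes tested.

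Several pigment cell genes without a promoter peak had B16F10 peaks around them, but not all did. Kit had 4 in each B16F10 library and 0 in 4T1, and Oca2 4 in each against 1, 0 and 0. Irf4 had 5, 6 and 5 against 1, 1 and 0, and Ednrb 4 in each against 1 in each. All 4 had more peaks in B16F10 in the limma model. Lef1, also without a promoter peak in the equal lists, went the other way, with 0 in each B16F10 library and 4 in each 4T1 library. Pou3f2 had 0 in every library. Pax3 had 6, 9 and 6 against 1, 0 and 0 (2.65 ± 0.37, SE), and Sox10 8, 8 and 7 against 2, 1 and 2 (1.72 ± 0.20, SE). The upstream Sox10 regions at 28.0 kb and 1.74 kb were called in B16F10 alone at lowest percentiles of 92.5 and 91.0, above the 60.9 of its promoter.

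Mitf, the master regulator of melanocytes, had regions of its own in each line. It had 11, 9 and 8 peaks in B16F10 and 10, 11 and 10 in 4T1, a difference of -0.14 ± 0.13 on the log2 scale (SE, adjusted p 0.42 by the limma model). Only peaks within 100 kb of the outermost 5′ end were counted, and the furthest region lay in an intron at 91.1 kb. Any part or further start of Mitf beyond that limit was not read. Of its regions 3 were called in B16F10 alone, 5 in 4T1 alone and 3 in all 6 libraries. All 5 of the 4T1-alone regions were intronic, between 11.3 and 66.3 kb from the 5′ end, and each held an AP-1 match. None of the 3 B16F10-alone regions held an AP-1 match; that 45.5 kb upstream held a MITF match and that 45.2 kb downstream a SOX match.

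In 4T1 the largest excess was at Btbd11, with 14, 14 and 13 peaks against 0 in each B16F10 library, Lrig1, a negative regulator of ErbB receptors (19, 19 and 20 against 0, 1 and 1), Egfr, the epidermal growth factor receptor (12, 11 and 12 against 0), Trabd2b and Tmprss11e (11 in each against 0), Ptgs2, the inducible cyclooxygenase (10, 9 and 11 against 0), Bdkrb2, 2900026A02Rik, Sox9, a factor of epithelial progenitors (8, 10 and 9 against 0), and Ptgfrn. The difference at Btbd11 was -3.87 ± 0.16 on the log2 scale (SE, adjusted p 2.5e-130 by the limma model). Btbd11, Egfr, Trabd2b, Ptgs2, 2900026A02Rik and Sox9 were in stretches of at least 200 kb without any peak in the complete B16F10 lists. Cdh2 and Fbxl7 were in such stretches of the complete 4T1 lists. DNA copy number at these genes was not tested. Of 26 epithelial junction genes tested, 16 had more peaks in 4T1 and 0 in B16F10, of 5 keratins 3 and 0, and of 19 AP-1 and TEAD genes 6 and 0. Over all genes tested 23.7% were higher in 4T1, and the share of the AP-1 and TEAD list lies near it. St14, the matriptase of epithelial surfaces, had 10, 9 and 10 peaks against 3, 4 and 2. Fosl1 had 4 in each 4T1 library against 1 in each B16F10 library, and Ccn1, a YAP1 target, 16, 15 and 15 against 7, 8 and 8. The medians were -0.58 for junction genes, -1.30 for keratins and -0.15 for the AP-1 and TEAD genes.

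The epithelial transcription and splicing list was mixed, with 7 of 16 genes higher in 4T1 and 3 (Ovol2, Esrp1 and Elf5) higher in B16F10. Grhl2 had 13 peaks in each 4T1 library and 6, 7 and 9 in B16F10, and 10 regions were called in 4T1 alone and 5 in B16F10 alone. Cdh1 had 7, 7 and 6 against 3 in each B16F10 library. Epcam had 5 in each 4T1 library and 4, 5 and 5 in B16F10 (adjusted p 0.69 by the limma model), although its promoter was open in 4T1 alone. Esrp1 had 1 peak in each 4T1 library, in a region that reached its promoter, and 3, 4 and 3 in B16F10. The B16F10 peaks all lay beyond 1000 bp of its outermost 5′ end, and 2 of 3 libraries had a peak at another transcript start. The direction of Esrp1 turned when every deposited peak was used (-0.19). Trp63, a basal epithelial factor with no promoter peak, had 4, 5 and 5 peaks against 1 in each B16F10 library, the latter being the SOX-rich window printed above.

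**Figure D4:**
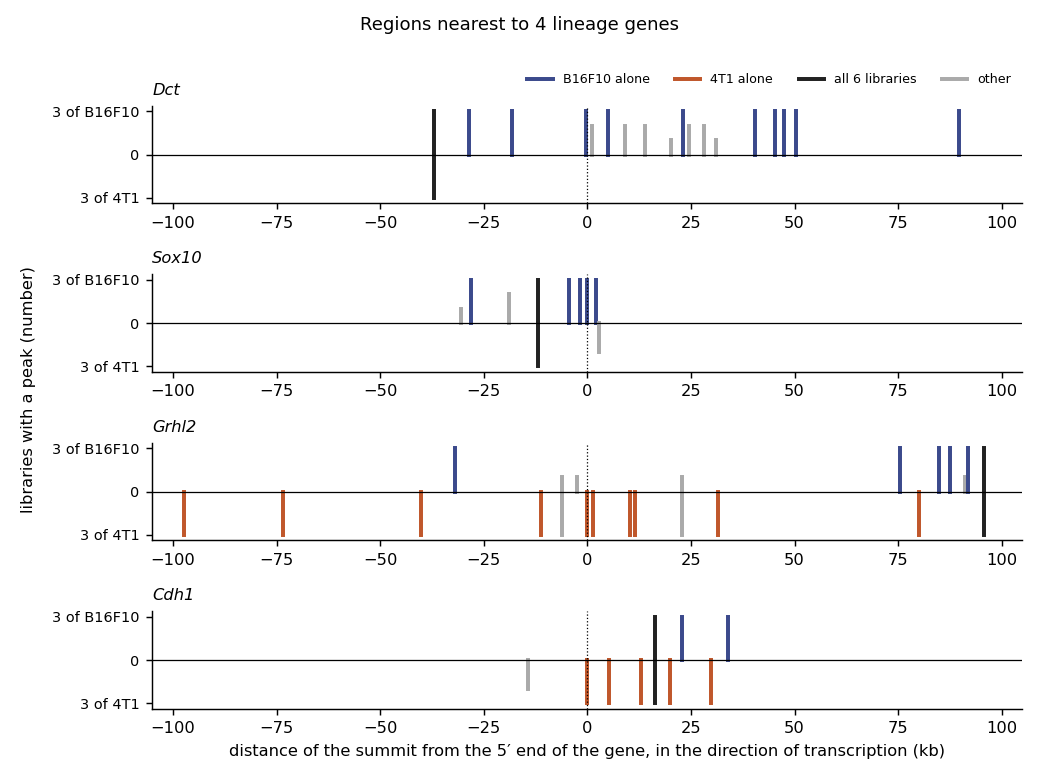
Regions assigned to Dct, Sox10, Grhl2 and Cdh1, by distance of the summit from the 5′ end in kb (horizontal axis) and number of libraries with a peak, B16F10 upwards and 4T1 downwards; colours give the class. Dct and Sox10 have B16F10-alone regions on both sides of the start, and Grhl2 and Cdh1 hold regions of both lines, with 10 and 5 of 4T1 alone.

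The remaining gene lists were counted against the same shares of all genes, 24.7% higher in B16F10 and 23.7% in 4T1. Most are of other cell types, but the mammary luminal and milk genes belong to the tissue of 4T1. With so few genes per list, several counts lie near them. Of 6 neuron genes tested, 4 had more peaks in 4T1: Nefl, a neurofilament (7, 6 and 7 against 0), Snap25 (6, 6 and 7 against 0, 0 and 1), Gad2 (8, 9 and 7 against 2 in each) and Rbfox3, and 0 had more in B16F10. Of 8 endothelial and fibroblast genes, 3 had more in B16F10 and 1 (Dcn) in 4T1; of 4 hepatocyte genes 1 (Ttr, 5, 6 and 5 against 0) had more in B16F10 and 1 (Apob) in 4T1; of 3 leukocyte genes 1 (Laptm5) had more in B16F10. Of 7 mammary luminal and milk genes, 5 had more in 4T1 and 0 in B16F10. Mesenchymal genes had more in 4T1 in 4 of 10 and in B16F10 in 1, and housekeeping genes in 2 and 1 of 12. The direction of Rbfox3 (0.39) and Apob (0.19) turned within 50 kb, and that of Laptm5 (-0.36), Cdh5 (-0.50), Pdgfra (-0.40) and the housekeeping gene Tubb5 (-0.69) with every deposited peak. Cdh5 also turned within 50 kb (-0.14).

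**Figure D5:**
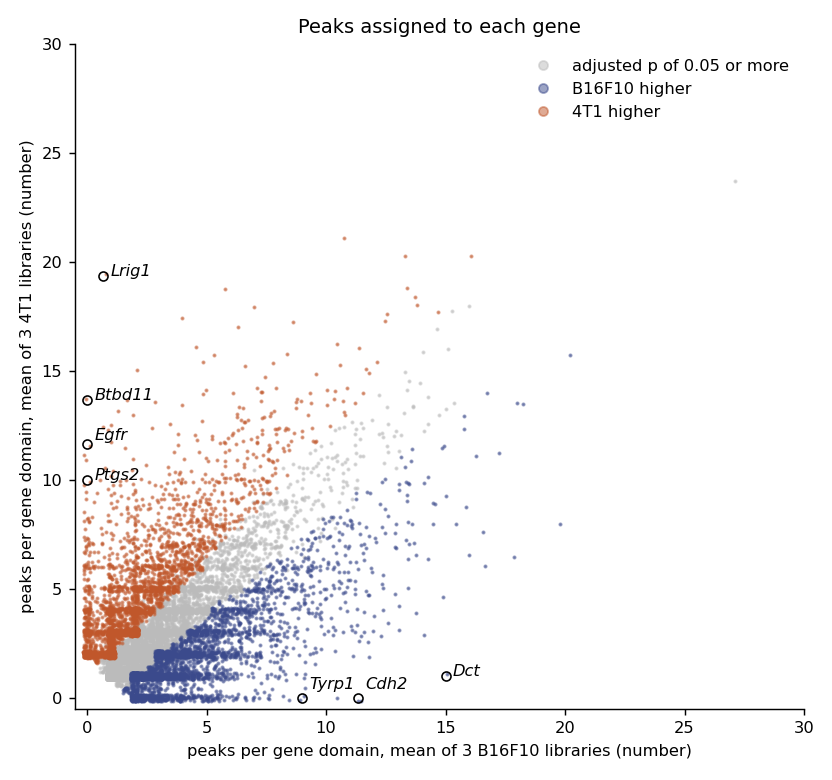
Peaks assigned to each of 14262 genes, as the mean of the 3 B16F10 libraries (horizontal axis) against the mean of the 3 4T1 libraries (vertical axis), with a small seeded jitter and colours for genes past an adjusted p of 0.05. Dct, Tyrp1 and Cdh2 lie along the B16F10 axis and Lrig1, Btbd11, Egfr and Ptgs2 along the 4T1 axis.

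Regions open in all 6 libraries differed in strength. Their rank within each list was turned into a normal score and tested with limma, with Benjamini-Hochberg adjustment over the 19575 regions. The score was higher in B16F10 for 11930 regions (60.9%) and in 4T1 for 3470 (17.7%), and the median difference was 0.38. When ranks were taken anew among the shared regions, the median fell to 0.08, and 7365 (37.6%) were higher in B16F10 and 5751 (29.4%) in 4T1. The share of calls on the side of B16F10 was thus 77.5% or 56.2%, depending on the scale. On the second scale, AP-1 matches were in 40.6% of the 3740 regions outside promoters that ranked higher in 4T1 and in 6.64% of the 4036 that ranked higher in B16F10. CTCF matches were in 5.24% and 14.7% of them, and SOX matches in 15.4% and 17.3%. Each region was searched at the summit of the library where its percentile was highest, so the place searched was tied to the ranks compared. With the window so placed, AP-1 was more frequent in the stronger 4T1 regions also where both lines were open, while SOX differed little there.

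Among promoters open in all 6 libraries, the largest differences towards B16F10 were at Slc27a6, a fatty acid transporter (percentiles 98.9, 98.9 and 98.9 against 11.7, 13.3 and 5.01), Lgi4, a Schwann cell myelination gene (86.7, 88.0 and 88.1 against 11.8, 0.247 and 8.86), Creld1, Shisa4, Sh3tc2, another Schwann cell gene, Platr25, Star, Slc30a4, a zinc transporter, Akna and Fignl2. Towards 4T1 they were at Gramd2 (8.62, 18.5 and 12.7 against 90.0, 88.7 and 89.9), Nqo2, a quinone reductase, Ccdc149, Fggy, Slc29a2, a nucleoside transporter, Dusp23, Fa2h, a fatty acid hydroxylase, Osr2, Tmem231 and Opn1sw. All 20 kept their direction with an adjusted p under 0.05 on the second scale. Of the lineage genes, Mc1r differed by 1.35 ± 0.12 (SE) and Tbx2 by 1.11 ± 0.08 (SE) towards B16F10, and Elf3, an epithelial ETS factor, by -0.76 ± 0.09 (SE) towards 4T1. Others went against their lineage: the melanocyte regulator Erbb3 differed by -0.22 ± 0.07 (SE) and the epithelial factor Grhl1 by 0.52 ± 0.08 (SE). These values are on the first scale, whose median lay 0.38 towards B16F10. On the second scale Mc1r was at 1.13, Tbx2 at 1.02, Elf3 at -1.13, Erbb3 at -0.70, Grhl1 at 0.42 and Rab27a at -0.30. Snai2 differed by 2.09 ± 0.085 (SE) towards B16F10.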

How the data were processed

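ATAC-seq peak lists of 6 untreated libraries (3 B16F10, 3 4T1) were used. Per the labels' protocols, nuclei were transposed with a Nextera kit and fragments size-selected. The submitters' processing notes list FastQC, MultiQC, Bowtie2, Picard, MACS2, DiffBind, ChIPseeker and mm10, with no version or order. For each library the authors deposited peaks with a fold enrichment (a ratio), a −log10 p-value, a −log10 q-value and a summit position. These p-values grow with depth. Read counts were not used here, so no counting interval was computed.

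The members and all 14 gene lists (194 genes) were chosen with earlier results of these data known. Genes named are list members called at the promoter in 1 line alone or past the domain test, the 10 of highest rank per line, the 10 largest domain and shared-promoter differences per direction, the 5 top regions per line and 12 fixed genes; further list members, such as Tjp3, Tead4, Elf3 and Snai2, were named after their values were seen. Some list members are counted but not reported here by name. Genes were those of GENCODE M21 and sequence that of RefSeq GRCm38.p6. Motifs were sought on both strands in 201 bp: those spelled in the report and CACGTG (E-box), ATCAAAG (TCF/LEF), ATGCAAAT (octamer), GCCNNNGGC (TFAP2), CCGGAAG (ETS), GGGCGGG (KLF/SP), CCAAT (NFY), TGACGTCA (CRE), TGTTTAC (FOX), AGATAAG (of GATA factors), TTCCNGGAA (STAT) and TTGCNNCAA or TTGCGCAA (C/EBP), with the PAX homeodomain, NRF1 and CTCF motifs by name. TCACGTG of the MITF motif holds the CACGTG E-box.

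Domain counts were fitted with limma 3.58.1 in R 4.3.3. The planned moderated variance made false calls on simulated data, where many genes had 0 spread. Each gene therefore took the larger of its own variance and the mean variance of genes within 0.25 of its log2 level, with a normal reference. That fit called 3523 and 3382 genes against 3369 and 3165 for the planned one, so it was not the stricter. Its normal reference makes no allowance for variances estimated from 6 libraries, so very small p-values are not exact. Ranks were fitted with limma's moderated test. Alternatives were other peak numbers, fold enrichment in place of p, other widths, overlaps, windows and filters, a replicate block and each library left out. Python 3.11.15, numpy 2.4.6, pandas 2.3.3 and scipy 1.17.1 were used.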

Additional observations from a re-analysis of the deposited data

How the results depend on the processing

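The differences in AP-1, the CACCTG E-box, RUNX, GRHL, TEAD and CTCF matches kept their direction under every alternative run, and that in SOX matches did not. With every deposited peak, B16F10 minus 4T1 was 46.3 bp in median width, 6.18 points in promoter share, -0.125 in exon share, 0.065 in CpG per 100 bp, 6.07 in island-like share, -2.01 in repeat share, and 1.47, 3.20 and 0.029 points for ETS, KLF/SP and STAT, all reversed. Ranked by fold enrichment, promoter share (0.845), island-like share (1.47), ETS (0.194), KLF/SP (0.617) and STAT (0.0054) reversed. At 25000 peaks per library, promoter share (2.77), CpG (0.268), island-like share (4.15), ETS (0.715), KLF/SP (2.15) and octamer (0.031) did. In whole peaks, MITF (-2.61), CACGTG (-2.52), SOX (-1.60), TCF/LEF (-2.06), TFAP2 (-3.47), NRF1 (-0.0013) and C/EBP (-1.12) reversed. The cause was not tested.

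The alternatives for the Jaccard index, the variance floor and the ranking among shared regions were chosen after seeing the data. The Jaccard index between lines was 0.274 with every deposited peak, 0.268 by fold enrichment and 0.299 at 25000 peaks; within 4T1 it was 0.809 and 0.827 under the first 2, and within B16F10 0.710, 0.716 and 0.797. With a library left out it ran from 0.845 to 0.851 within 4T1 and from 0.719 to 0.731 within B16F10. Regions called in 4T1 alone numbered 47746 with every deposited peak. At 25000 peaks, regions numbered 10451 in B16F10 alone, 12006 in 4T1 alone and 10645 in all 6. Promoters called in B16F10 alone numbered 425 with every deposited peak, 409 without a peak in the complete 4T1 lists, 1217 by fold enrichment and 1176 at 25000 peaks, where those in 4T1 alone numbered 751. Of 70 named promoters called in 1 line alone, 11 lost the call when every transcript start was used, 13 at 25000 peaks and 9 each with every deposited peak, by fold enrichment and with promoters of 2500 bp either side. With every deposited peak, whose lists differ in length, 997 genes had more peaks in B16F10 and 8072 in 4T1. Shared regions ranked higher in B16F10 or 4T1 in 7365 and 5751 cases when ranked among themselves; 4T1 was higher in 7468 with every deposited peak and in 2261 by fold enrichment; at 25000 peaks the counts were 5800 and 1917.

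Single genes whose domain difference (log2) turned were Tfap2a (0.074), Sox5 (0.72), Cdh5 (-0.14), Rbfox3 (0.39) and Apob (0.19) within 50 kb; Ngfr (-0.20), Esrp1 (-0.19), Sparc (-0.0060), Laptm5 (-0.36), Cdh5 (-0.50), Pdgfra (-0.40) and Tubb5 (-0.69) with every deposited peak; Cldn3 (1.25), Prss8 (0.53) and Axl (1.58) by fold enrichment; and Tfap2a (0.088), Zeb2 (-1.58) and Ngfr (-0.031) at 25000 peaks. Without the variance floor, 3369 and 3165 genes were called.

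Replicate numbers did not pair the libraries: the deviations of same-numbered libraries correlated at 0.006, -0.010 and 0.018. With the number as a replicate block, 3540 and 3399 genes and 11871 and 3465 shared regions were called, and no per-library measure could go below p = 0.25 in an exact permutation test. Depth limits the comparison: the lists hold no counts, and the peaks used from 4T1 end far above the limit of the complete lists.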

Other observations

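Peaks were spread unevenly over chromosomes. Chromosome 6 held 6.36%, 6.33% and 6.36% of the B16F10 peaks and 4.93%, 4.94% and 4.98% of the 4T1 peaks, and chromosome 13 held 3.65%, 3.63% and 3.54% against 4.62%, 4.58% and 4.53%. The ratio of the means was 1.28 for chromosome 6 and 0.788 for chromosome 13, the highest and lowest of all 20 chromosomes. The X chromosome held 2.28% ± 0.035 and 1.98% ± 0.031 (SD, n = 3 each).

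In the complete lists, some long stretches held peaks in 1 line and none in the other. A stretch of 2320 kb on chromosome 13 around the homeobox genes Irx1 and Irx2 and the protease gene Adamts16 held 76, 75 and 81 peaks in 4T1 and none in B16F10. Stretches of 1718 kb around Inhba, a subunit of activin, with 55, 55 and 57 peaks, and of 1037 kb around Sox9, with 48, 43 and 43, likewise held peaks in 4T1 alone. A stretch of 281 kb around Cdkn2a and Cdkn2b held 30, 29 and 30 4T1 peaks and none in B16F10. The reverse was seen over 3203 kb on chromosome 18 around Cdh2, Aqp4 and Chst9, with 21, 24 and 23 B16F10 peaks, over 409 kb around Sox6, with 19, 16 and 16, and over 447 kb around Fbxl7, with 15, 16 and 16. There were 385 such stretches of at least 200 kb and 8 peaks per library for 4T1 and 31 for B16F10. The lists differ in length, so these counts cannot be compared between the lines. DNA copy number was not tested, here or for the shares per chromosome.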
